A study of Mus musculus with 6 samples.

Results

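Zinc finger genes with a numbered Zfp symbol were examined in regulatory T cells (Treg) that carry or lack KAP1. The count table held 355 rows whose mouse symbol is Zfp followed only by digits, among 37991 rows in all. The genes were chosen by their measured level: a mean of at least 2 CPM (counts scaled to a common library total) over the 6 libraries was required, which left out 88 rows, 26 of them at 0 counts in every library. By name the rule also left out Zfp36 and 5 genes of a chromosome 17 group (Zfp51, Zfp52, Zfp53, Zfp54 and Zfp948), and Zfp296, which lay under the limit in any case. The 261 genes that remained are described here, and 259 of them are annotated as protein coding.

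The cells were splenic Treg, T cells defined by Foxp3 that hold immune responses in check; CD4 cells were enriched first and YFP-positive cells sorted from them. The labels name 3 libraries as wild type and KAP1 sufficient and 3 as KAP1 deficient. The strain is given as C57BL/6 for 4 of them, and as C57BL/7 and C57BL/8 for the libraries labelled deficient replicates 2 and 3. The sources used here give no age, number of animals or driver of the deletion and YFP reporter. Because no label ties libraries to separate animals, each p-value reflects spread among these libraries alone, which may be technical. In bulk RNA fewer cells of a kind and less RNA per cell cannot be told apart.

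Most Zfp-numbered genes encode DNA-binding proteins built of repeated C2H2 zinc fingers, in which cysteines and histidines hold a zinc ion and each finger reads a few bases. A large vertebrate family adds a KRAB box, the part that binds KAP1 (gene name Trim28), and KAP1 in turn brings the histone methyltransferase SETDB1 and HP1 proteins. KRAB zinc finger proteins are known for silencing retroelements and for keeping imprints. Their genes arose by tandem duplication, lie in clusters, and are themselves known to carry KAP1 and repressive histone methylation over their coding ends.

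The labels were first checked on the targeted gene. Trim28 stood at 244, 244 and 21.2 CPM in the libraries labelled sufficient replicates 1, 2 and 3, and at 23.0, 18.6 and 231 CPM in those labelled deficient replicates 1, 2 and 3, so sufficient replicate 3 and deficient replicate 3 go against their labels. Deficient replicate 3 also stood apart from every other library, with a chi-square per degree of freedom over genes of 7.66 to 9.19, against 2.94 between sufficient replicates 1 and 2, 2.52 to 3.24 among the libraries with low Trim28 and 12.2 to 14.3 between these 2 sets. The zinc finger genes were therefore compared by label in all 6 libraries, by label in the 4 libraries whose Trim28 goes with the label, and between the libraries with high Trim28 (labelled sufficient 1 and 2 and deficient 3) and low Trim28 (labelled sufficient 3 and deficient 1 and 2). The last grouping rests on a measured value and not on the labels, so its p-values describe these libraries and not genotypes. Totals were 9954344 to 10994745 counts. The Treg markers summed to 4048 to 4117 CPM in the high-Trim28 and 3891 to 4036 CPM in the low-Trim28 libraries, which did not overlap, and none of the 6 was called between them. In the 4 libraries 1 of the 6 was called higher (16.7%) and 2 lower (33.3%), beside 9.96% and 7.39% of all genes tested. Their log2 fold changes there ran from -0.25 to 0.19. Of the NK markers Ncr1 had 0 counts in every library, Klrb1c had 24 to 28 counts with high and 90 to 109 with low Trim28, and Nkg7 had 168 to 235 and 124 to 133; the list summed to 19.3 to 23.7 and 21.2 to 24.1 CPM. The CD8 list, nearly all Cd8b1 at 102 to 148 counts, summed to 11.6 to 14.8 and 10.2 to 12.9 CPM, and the myeloid list to 4.64 to 6.43 and 5.44 to 7.84 CPM. Dendritic and erythroid markers stayed under 1 CPM in sum, with Itgax, Siglech and Alas2 at 0 counts in every library. Summed B cell markers were 14.2 to 15.9 CPM in the high-Trim28 and 9.42 to 12.1 CPM in the low-Trim28 libraries, summed stromal markers 1.28 to 1.58 and 0.496 to 0.804 CPM, and the mitochondrial share of counts 1.61% to 2.1% and 1.33% to 1.41%; their part in the results below was not tested.

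The 261 genes took 1.05% to 1.12% of all counts in each library, so their summed RNA was nearly level. Their mean levels ran from 2.07 to 298 CPM with a median of 24.8 CPM. Under 10 CPM there were 71 genes and at or above 100 CPM there were 24. The highest mean levels were those of Zfp207 (298 CPM), Zfp638 (263 CPM), Zfp106 (262 CPM), Zfp292 (259 CPM) and Zfp646 (253 CPM). Zfp207, also called BuGZ, is known for spindle assembly, and none of these 5 proteins had a KRAB pattern in its coding sequence. Per kilobase of annotated exon Zfp207 was again first of all 261, at 44.8 CPM per kilobase, and Zfp638 stood at 16.6. Just inside the limit lay Zfp970 (2.07 CPM), Zfp112 (2.1 CPM) and Zfp580 (2.12 CPM), and just outside it Zfp991 (1.995 CPM), Zfp820 (1.98 CPM) and Zfp111 (1.97 CPM).

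The genes varied little between libraries. The median coefficient of variation over the 6 libraries was 9.5%, beside 8.56% for 10935 other tested genes at a mean of at least 2 CPM. It was 15.4% for genes under 10 CPM and 8.2% for the rest. At a mean of at least 5 CPM the largest values were 46.1% for Zfp992, 36.6% for Zfp839 and 29.2% for Zfp128.

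By label in all 6 libraries none of the 261 genes passed the edgeR quasi-likelihood test at an adjusted p under 0.05, where 0.0165% of 12158 tested genes did (0.00823% higher and 0.00823% lower). At an unadjusted p under 0.05 there were 18 of the 261 genes (6.9%), against 7.76% of all genes tested, and DESeq2 and limma-voom also called none. The median log2 fold change, deficient against sufficient, was 0.03, with a range of -0.47 to 0.66. The CPM values of the labelled groups did not overlap for 16 genes higher in deficient libraries (6.13%, beside 6.73% of all genes tested) and 17 genes lower (6.51%, beside 6.05%). The smallest p-values belonged to Zfp606, Zfp148 and Zfp346. Zfp606, a KRAB zinc finger gene, stood at 14.8, 14.9 and 17.4 CPM in the libraries labelled sufficient and at 22.0, 19.8 and 20 CPM in those labelled deficient. Every deficient library was above every sufficient one for Zfp606, yet its log2 fold change of 0.39 had an edgeR adjusted p of 0.632. Zfp148, which encodes a factor of GC-rich promoters also called ZBP-89, stood at 136, 128 and 142 CPM in sufficient and 161, 151 and 158 CPM in deficient libraries (0.21, adjusted p = 0.632). Zfp346, which encodes a protein that binds double-stranded RNA, stood at 44.3, 40.8 and 43.1 CPM in sufficient and 46.9, 51.6 and 53.8 CPM in deficient libraries (0.25, adjusted p = 0.632). Without the library labelled sufficient replicate 3 the count of called genes went from 0 to 19.

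In the 4 libraries 33 of the 261 genes rose, 7 fell and 221 did not pass (edgeR adjusted p under 0.05). That is 12.6% higher and 2.68% lower, beside 9.96% and 7.39% of 12183 genes tested, and 15.3% in both directions together, beside 17.4%. At an unadjusted p under 0.05 there were 72 of the 261 genes (27.6%), beside 30.6%. The median log2 fold change was 0.04, beside -0.00 for all genes. The changes were small: 6 of the 40 reached 0.5 on the log2 scale and 1 reached 1. DESeq2's Wald test called 10 of the 261 genes in the same 4 libraries. Of the 40 calls 10 stayed with DESeq2, 31 with upper-quartile factors, 33 with limma-voom and 34 with the non-robust fit. Leaving out a single library gave fewer called genes, but left 1 library in a group, and some of the genes called then were not among the 40.

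**Figure D1:**
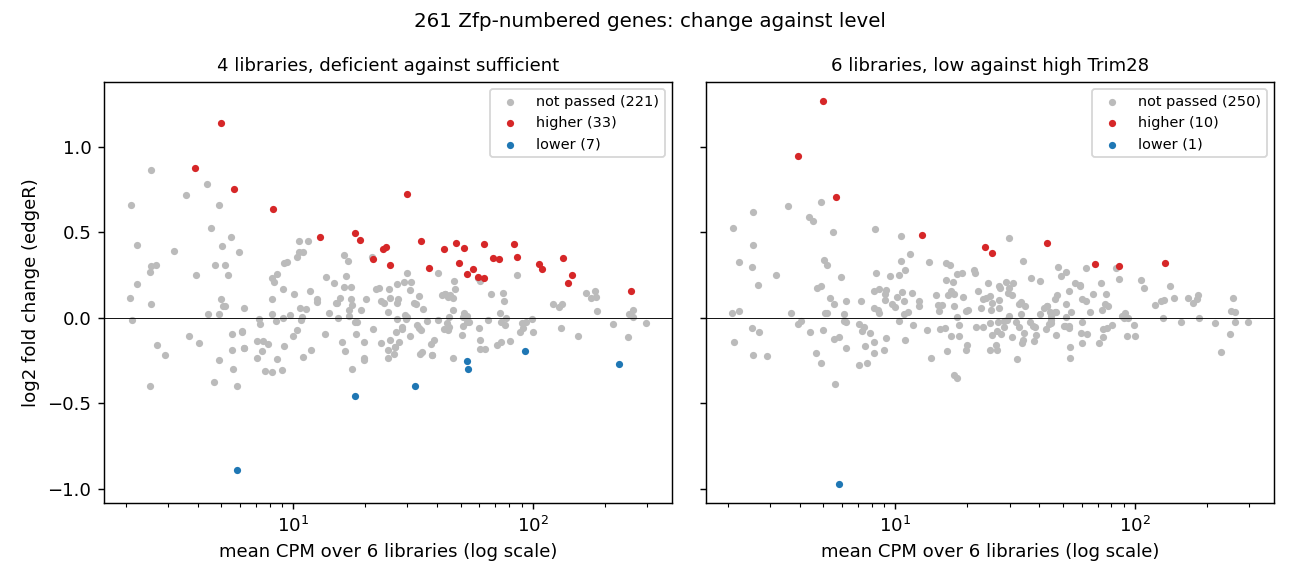
Each point is 1 of the 261 genes; the horizontal axis is the mean CPM over 6 libraries on a log scale and the vertical axis the edgeR log2 fold change, for deficient against sufficient in 4 libraries (left) and low against high Trim28 in 6 libraries (right). Called genes number 33 higher and 7 lower on the left, and 10 and 1 on the right, and most called genes lie within 0.5 of 0.

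Among genes called in the 4 libraries and not by Trim28 level, Zfp758, a KRAB zinc finger gene on chromosome 17 (22361453 to 22377281, mm10), changed the most. It stood at 23.6 and 19.8 CPM in sufficient replicates 1 and 2 and at 32.4 and 39.1 CPM in deficient replicates 1 and 2, a log2 fold change of 0.73 ± 0.12 (SE, edgeR adjusted p = 0.000611). The libraries with contradicted labels stood at 32.3 (sufficient 3) and 32 CPM (deficient 3), so that both lay with deficient replicates 1 and 2. Zfp606 rose by 0.50 ± 0.12 and Zfp932 by 0.45 ± 0.12. Zfp932, known to act on endogenous retroviruses, stood at 14.6, 15.4 and 21.2 CPM in sufficient and 20.4, 20.5 and 22.0 CPM in deficient libraries, with the library labelled sufficient replicate 3 among the deficient ones. Zfp984 rose by 0.45 ± 0.10 and Zfp937 by 0.64 ± 0.21. Zfp606, Zfp932 and Zfp984 lost their calls with DESeq2, Zfp606 also without deficient replicate 1, Zfp984 without sufficient replicate 1, and Zfp932 without any of 3 single libraries. Shared 50-base stretches made up 54.5% of those of Zfp984 and 37% of those of Zfp932, so their counts are uncertain. Zfp937 lost its call with DESeq2 (adjusted p = 0.316), limma-voom, other scaling factors, the non-robust fit and without any of 3 single libraries. Without sufficient replicate 2 its log2 fold change was 0.35.

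The genes that fell without being called by Trim28 level included Zfp446 (-0.46 ± 0.12), Zfp961 (-0.40 ± 0.10), Zfp579 (-0.30 ± 0.08), Zfp592 (-0.27 ± 0.06) and Zfp827 (-0.25 ± 0.08). Zfp961 was the only one of the 7 genes lowered in the 4 libraries whose coding sequence held a KRAB pattern. Zfp592, known as a partner in ZMYND8 chromatin complexes, stood at 270, 243 and 215 CPM in sufficient and 207, 217 and 227 CPM in deficient libraries. Its highest values were in sufficient replicates 1 and 2, and the 4 others lay together. Zfp579 and Zfp961 lost their calls with DESeq2 and without sufficient replicate 1, and Zfp961 also without deficient replicate 2. Zfp827 lost its call with DESeq2, limma-voom and the non-robust fit, and without sufficient replicate 1 or deficient replicate 2.

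The 2 libraries that did not enter this fit were set against each other, with 1 library a side and no test. Of the 33 genes that rose, 25 (75.8%) were higher in the library labelled sufficient replicate 3, where Trim28 is low, than in deficient replicate 3, beside 802 of 1214 (66.1%) among all genes that rose. Of the 7 that fell, 4 were lower there, beside 718 of 900 (79.8%) among all genes that fell. Relative to the mean of sufficient replicates 1 and 2, the 33 genes had a median level of 131% in deficient replicate 1, 127% in deficient replicate 2, 131% in the library labelled sufficient replicate 3 and 124% in deficient replicate 3. The 33 genes were chosen for low values in sufficient replicates 1 and 2, a choice that by itself raises percentages of their mean, so these are a description only. Zfp26, a KRAB zinc finger gene named after its values were seen, stood at 71.4, 65.0 and 91.2 CPM in sufficient and 96.9, 86.4 and 89.8 CPM in deficient libraries.

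**Figure D2:**
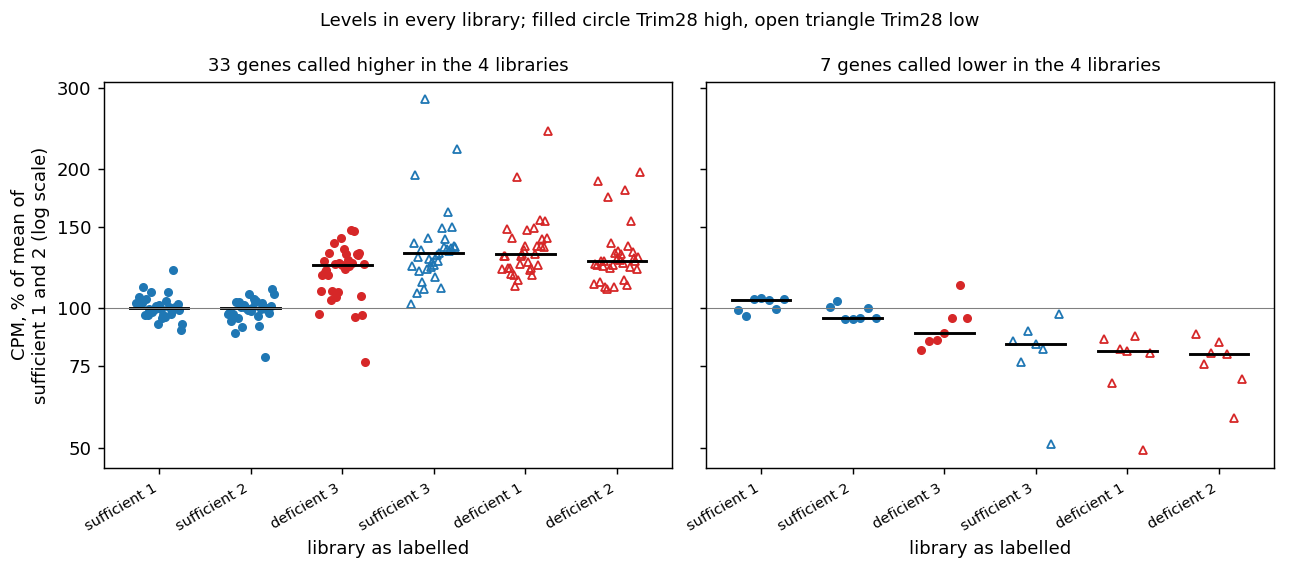
Each point is 1 gene called higher (left, 33 genes) or lower (right, 7 genes) in the 4 libraries; the vertical axis is its CPM as a percent of the mean of sufficient replicates 1 and 2 on a log scale, the horizontal axis the library as labelled, and bars are medians. On the left the medians are 131% for the library labelled sufficient 3 and 124% for deficient 3; the choice of genes low in sufficient replicates 1 and 2 by itself raises values set against them.

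By Trim28 level 10 genes were higher and 1 was lower in the low-Trim28 libraries, and 250 did not pass. The 10 make 3.83% of the 261 genes, beside 4.61% of 12158 genes tested, and the 1 makes 0.383%, beside 3.61%, so the calls were no more frequent than among all genes. At an unadjusted p under 0.05 there were 49 of the 261 genes (18.8%), beside 22.3%. With upper-quartile scaling the split was 10 and 3. The groups did not overlap for 39 genes higher with low Trim28 (14.9%, beside 11.9% of all genes tested) and 18 lower (6.9%, beside 14.5%). All 11 called genes were called in the 4 libraries as well, which share 4 of the same libraries. The count depended on single libraries: without deficient replicate 3 it was 54 (45 higher and 9 lower), and without the library labelled sufficient replicate 3 it was 5. With the replicate number as a block it was 18, and with no filter on low counts beyond 1 count it was 29.

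The genes named next were picked by the test between high- and low-Trim28 libraries, a choice that by itself favours groups that do not overlap. Their separation is a description only. Zfp992, a KRAB zinc finger gene on chromosome 4 (146449023 to 146470292), differed the most. It stood at 2.97, 3.44 and 2.46 CPM in the high-Trim28 libraries and at 7.09, 7.74 and 6.33 CPM in the low-Trim28 libraries (2.95 ± 0.491 against 7.05 ± 0.705 CPM, SD, n = 3 each). The groups did not overlap, with a difference of 1.27 ± 0.19 on the log2 scale (SE, adjusted p = 0.000655 in edgeR). Of the 50-base stretches of its annotated transcripts 43% also occur in transcripts of other genes, so its counts are uncertain. Zfp300, on the X chromosome (21079174 to 21089527), stood at 2.57, 2.16 and 3.27 CPM with high Trim28 and 6.70, 4.56 and 4.12 CPM with low Trim28, a log2 fold change of 0.95 ± 0.24 (adjusted p = 0.027). Its highest value was in the library labelled sufficient replicate 3, without which it was 0.71 and not called. Zfp300 also lost its call with DESeq2 and without sufficient replicate 1 or 2 or deficient replicate 1.

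Zfp445, known to keep genomic imprints together with Zfp57, had the highest mean level of the 11 genes called by Trim28 level (chromosome 9, 122844529 to 122866006). It stood at 116, 117 and 126 CPM with high Trim28 and at 149, 151 and 144 CPM with low Trim28 (120 ± 5.80 against 148 ± 3.56 CPM, SD, n = 3 each). In each group the libraries lay close together, and Zfp445 differed by 0.32 ± 0.06 on the log2 scale (adjusted p = 0.00237). Zfp110, whose product binds the p75 neurotrophin receptor, stood at 77.1, 73.7 and 82.1 against 93.2, 98 and 94.0 CPM (0.30 ± 0.06, adjusted p = 0.00533). Zfp950 stood at 36.6, 34.9 and 38.1 against 53.5, 48.6 and 45.3 CPM (0.44 ± 0.08, adjusted p = 0.00308).

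The other genes higher with low Trim28 were Zfp128 (0.71 ± 0.18), Zfp983 (0.49 ± 0.12), Zfp420 (0.42 ± 0.09), Zfp933 (0.38 ± 0.09) and Zfp120 (0.31 ± 0.08). All 5 lost the call without the library labelled sufficient replicate 3, and Zfp128 and Zfp983 with DESeq2. Without sufficient replicate 1 or 2 the calls of Zfp128, Zfp983 and Zfp120 were lost too, without deficient replicate 1 those of Zfp983, Zfp120 and Zfp933, and without deficient replicate 2 those of Zfp128 and Zfp420. Zfp420 was the 1 of the 10 in which no KRAB pattern was found, and its coding sequence held 19 finger patterns.

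Zfp839 was the single gene lower with low Trim28 (chromosome 12, 110850253 to 110869996). It stood at 7.42, 7.47 and 8.37 CPM with high Trim28 and at 3.79, 3.67 and 4.32 CPM with low Trim28 (7.75 ± 0.533 against 3.93 ± 0.346 CPM, SD, n = 3 each). It differed by -0.97 ± 0.16 on the log2 scale (adjusted p = 0.00163 in edgeR), with every low-Trim28 library near 4 CPM. No C2H2 finger pattern was found in its coding sequence, so it shares the Zfp symbol without the letters searched for.

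**Figure D3:**
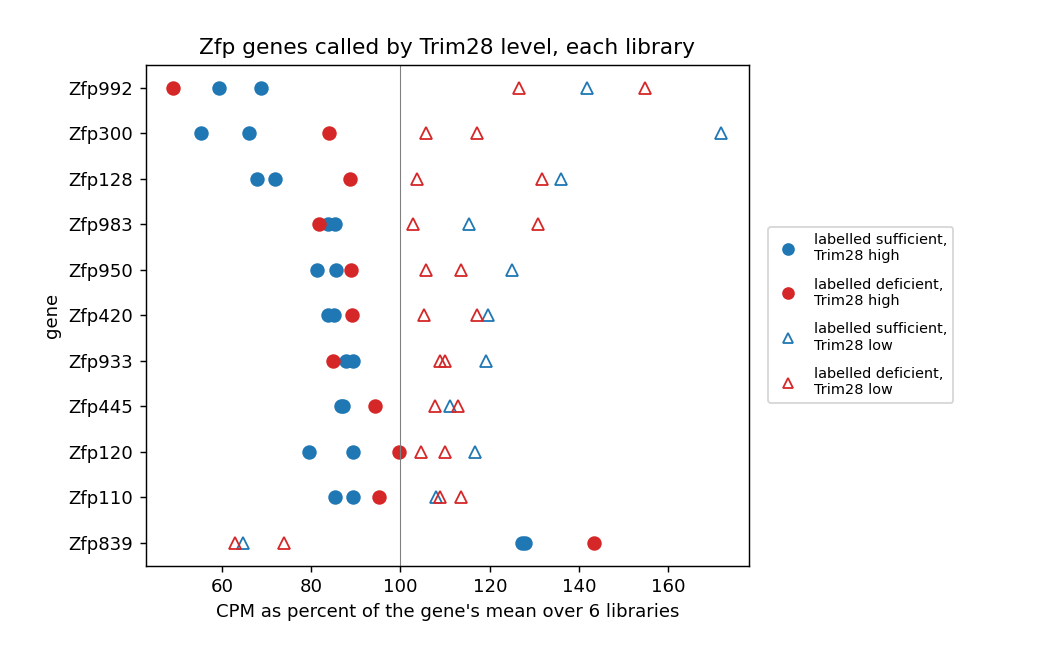
Each row is 1 of the 11 genes called by Trim28 level, and each mark the CPM in 1 library as a percent of the gene's mean over 6 libraries; colour gives the label (blue sufficient, red deficient) and shape the Trim28 level (filled circle high, open triangle low). For all 11 genes the circles and the triangles do not overlap, while the colours mix. The genes were picked by the test between these same circles and triangles, a choice that by itself favours such separation.

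Promoter windows were taken from RefSeq (GRCm38.p6, 250 bases before to 50 after the annotated start), which held 264 windows for 219 of the 261 genes. Those of 3 genes with full values above are shown, 5′ to 3′ on the gene's strand, with CG dinucleotides in capitals, because they let the start regions of a rare and an abundant gene higher with low Trim28 be read beside that of the 1 lower gene. They lie at chrX:21089180-21089479 (minus strand) for Zfp300, chr9:122865957-122866256 (minus strand) for Zfp445 and chr12:110850029-110850328 (plus strand) for Zfp839.
Zfp300: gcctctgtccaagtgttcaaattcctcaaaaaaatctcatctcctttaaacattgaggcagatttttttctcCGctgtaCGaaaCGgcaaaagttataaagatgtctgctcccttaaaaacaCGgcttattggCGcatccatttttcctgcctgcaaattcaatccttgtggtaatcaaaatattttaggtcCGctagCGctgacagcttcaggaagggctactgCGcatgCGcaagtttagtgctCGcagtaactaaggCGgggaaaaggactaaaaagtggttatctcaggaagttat
Zfp445: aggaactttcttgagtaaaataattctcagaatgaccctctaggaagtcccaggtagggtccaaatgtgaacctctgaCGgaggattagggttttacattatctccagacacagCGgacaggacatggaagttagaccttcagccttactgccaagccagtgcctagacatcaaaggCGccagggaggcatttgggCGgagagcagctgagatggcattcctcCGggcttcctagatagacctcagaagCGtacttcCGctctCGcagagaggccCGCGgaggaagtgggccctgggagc
Zfp839: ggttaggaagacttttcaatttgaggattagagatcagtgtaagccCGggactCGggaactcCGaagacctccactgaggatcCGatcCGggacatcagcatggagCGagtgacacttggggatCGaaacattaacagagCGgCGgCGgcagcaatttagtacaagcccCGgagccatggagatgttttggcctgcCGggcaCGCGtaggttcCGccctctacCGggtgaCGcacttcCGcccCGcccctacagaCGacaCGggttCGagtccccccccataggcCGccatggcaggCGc
The windows held 11, 10 and 24 CG dinucleotides, and 41.4%, 43.5% and 20% of all 32807 windows held at least as many. The median was 16 over the 264 windows, 11.5 over the 30 windows of genes that rose in the 4 libraries, 16 over the 229 of genes that did not pass, 23 over the 5 of genes that fell, and 7 over all windows. Both strands were searched for an ETS core (CCGGAAG), a YY1 core (AAGATGGC), the NRF1 core and a TATA box (TATAAA), no motif being part of a second one. The shares of the 264 windows with a match were 21.6%, 5.68%, 3.41% and 7.2%, beside 8.86%, 2.74%, 0.966% and 13.6% of all windows. An ETS core was found in 7 of the 30 windows of genes that rose (23.3%) and 49 of the 229 windows of genes that did not pass (21.4%). The Zfp300 window held the NRF1 core and the TATA box, and the Zfp445 and Zfp839 windows held none of the 4 motifs. All windows include those of genes that these cells do not express, and a match is a description only.

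Coding sequences were used to divide the genes by the KRAB box, the part that KAP1 is known to bind. Annotated GENCODE coding sequences were translated and searched for 2 patterns typical of the first KRAB box. Either was found in 129 genes, neither in 130, and 2 genes had no coding sequence. A KRAB box with other letters would be missed, so genes without a pattern may still carry one. Of the 129 genes with a KRAB pattern 22 rose (17.1%) and 1 fell (0.775%) in the 4 libraries, with a median log2 fold change of 0.11. Of the 130 without one 11 rose (8.46%) and 6 fell (4.62%), with a median of -0.00. The same shares over all genes tested were 9.96% and 7.39%. By Trim28 level 9 with a KRAB pattern were higher (6.98%) and none lower, at a median of 0.08. Without one 1 was higher (0.769%) and 1 lower (0.769%), at a median of 0.02. The shares of all genes tested by Trim28 level were 4.61% higher and 3.61% lower. The groups did not overlap for 26 genes with a KRAB pattern higher with low Trim28 (20.2%) and 4 lower (3.1%). Without the pattern 13 were higher with no overlap (10%) and 14 lower (10.8%), beside 11.9% and 14.5% of all genes tested. The difference between the 2 kinds was not tested. With both patterns required 48 genes remained, of which 7 rose and none fell.

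**Figure D4:**
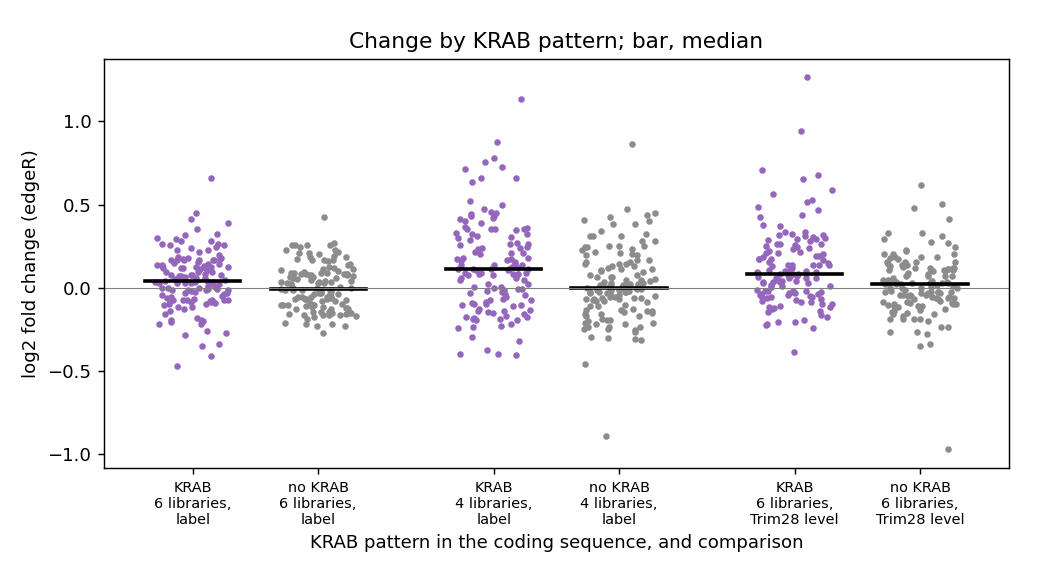
Each point is 1 gene, with (purple, 129) or without (grey, 130) a KRAB pattern in its coding sequence; the vertical axis is the edgeR log2 fold change in each of the 3 comparisons and bars are medians. In the 4 libraries the medians are 0.11 and -0.00, and both kinds spread widely around 0.

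Coding sequences held 0 to 33 finger patterns with a median of 10, and 15 genes held none. The median was 11 for genes that rose in the 4 libraries, 8 for those that fell and 10 for those that did not pass. The genes called in the 4 libraries had higher levels, at a median mean of 49.5 CPM for those that rose and 53.5 CPM for those that fell. The median was 20.1 CPM for those that did not pass. Genes called by Trim28 level had means from 3.90 CPM for Zfp300 to 134 CPM for Zfp445. The part of depth in the calls was not tested.

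Clusters were formed from at least 3 of the genes on 1 chromosome with no gap over 1 Mb between neighbours. There were 24 clusters with 154 genes (59%), and 69 of the 261 genes lay on chromosome 7. In the 4 libraries 17 of the 154 clustered genes rose (11.04%) and 3 fell (1.95%), at a median of 0.05. Of the 107 others 16 rose (15.0%) and 4 fell (3.74%), at a median of 0.04, beside 9.96% and 7.39% of all genes tested. In 12 of the 24 clusters no gene was called in either the 4 libraries or by Trim28 level. Neighbours may share reads and control regions, so they are not independent, and clusters are given without a test.

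On chromosome 17 the run from Zfp160 to Zfp213 (21008903 to 23564238) holds 13 of the genes and encloses the 5 left-out genes. Of the 13, Zfp758 (0.73), Zfp983 (0.47), Zfp945 (0.44) and Zfp942 (0.43) rose in the 4 libraries, 12 of the 13 log2 fold changes were above 0, and the median was 0.17. Their increases were not uniform along the run: Zfp677, next to the left-out genes, had 30.5, 29.3 and 29.6 CPM in sufficient and 30.9, 28.9 and 29.7 CPM in deficient libraries, at a log2 fold change of 0.01. Zfp946 had the highest value by Trim28 level (0.56, adjusted p = 0.109) and Zfp677 the lowest (0.01). A further chromosome 17 run from Zfp871 to Zfp414 (32765496 to 33631779) had 2 of 8 genes higher, at a median of 0.18.

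On chromosome 7 the run from Zfp551 to Zfp446 (12415153 to 12985714) lies beside Trim28 itself, which begins at 12999114. Of its 7 genes Zfp128 (0.76), Zfp606 (0.50) and Zfp110 (0.35) rose in the 4 libraries and Zfp446 fell, and the median was 0.35. Zfp446, 13.4 kb from Trim28, stood at 20.7, 22.2 and 16.4 CPM in sufficient and 14.8, 16.3 and 18.2 CPM in deficient libraries, and lost its call with DESeq2 and without sufficient replicate 2 or deficient replicate 1. Zfp324, 24.9 kb from Trim28, had a log2 fold change of -0.07. Whether distance to the deleted gene plays a part was not tested.

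On chromosome 2 the run of Zfp120, Zfp937 and Zfp442 (150114406 to 150451486) had the highest median of the 24 clusters, 0.64, with 2 of 3 genes called. That median is the value of Zfp937 alone, whose call was lost under several alternatives, as given above. In addition 29.4% and 32.1% of the 50-base stretches of Zfp937 and Zfp442 occur in other genes. A second chromosome 2 run, Zfp970, Zfp971 and Zfp931, had the lowest median, -0.38, with none called. The largest cluster, 15 genes on chromosome 13 (67038596 to 67827002), all with a KRAB pattern, had 1 gene higher in the 4 libraries, Zfp65 (0.35), and values by Trim28 level from -0.16 for Zfp273 to 0.66 for Zfp458, neither called. On chromosome 7 the 9 genes from Zfp180 to Zfp526 had a median of -0.17 and the 12 from Zfp84 to Zfp146 a median of 0.00, and Zfp420 in the latter was the 1 called gene of both. The 9 genes on chromosome 6 from Zfp398 to Zfp775 and the 5 on chromosome 8 from Zfp930 to Zfp866 had medians of -0.00 and no called gene.

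**Figure D5:**
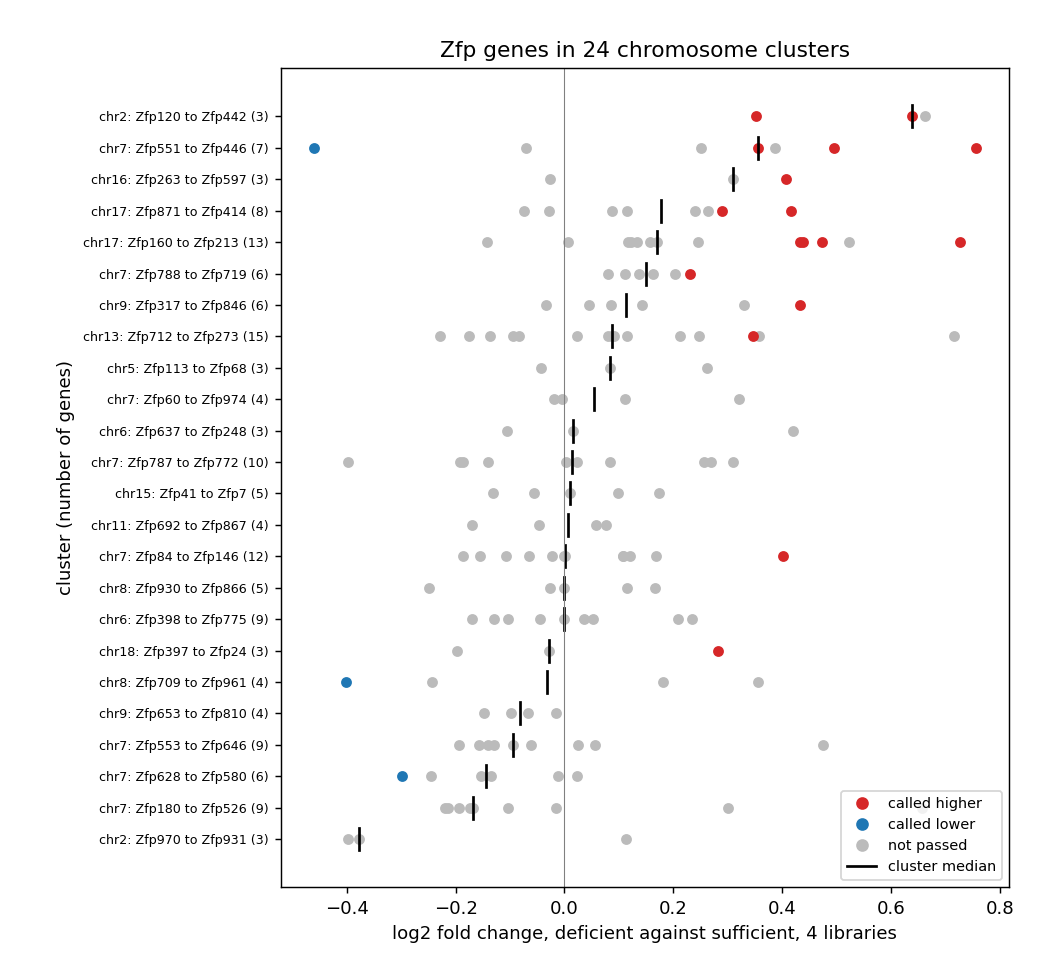
Rows are the 24 clusters, named by chromosome and by their first and last gene with the number of genes, ordered by median; each point is the log2 fold change of 1 gene, deficient against sufficient in 4 libraries, red called higher, blue called lower, grey not passed. Medians run from -0.38 to 0.64, and called genes lie among uncalled neighbours.

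Values of genes with a known role, chosen with earlier results known, are given for comparison with Zfp445. Zfp809, which recognises a primer-binding site of murine leukaemia viruses, stood at 25.2, 24.4 and 23.5 CPM in sufficient and 23.7, 20.9 and 21.7 CPM in deficient libraries, with a log2 fold change in the 4 libraries of -0.15 ± 0.11 (adjusted p = 0.402). Zfp568, known to repress a placental Igf2 promoter, stood at 23.3, 21.1 and 21.3 and at 20.4, 21.8 and 21.9 CPM (-0.07 ± 0.11). Zfp708, known to bind a retroelement, had -0.23 ± 0.16, but 94.9% of its 50-base stretches are shared with other genes. Zfp57, the partner of Zfp445 in imprinting, was under the limit at a mean of 0.0319 CPM. Of 2 genes known from T cells, Zfp335, needed for T cell maturation, stood at 133, 123 and 133 in sufficient and 136, 130 and 120 CPM in deficient libraries (0.06 ± 0.06), and Zfp91, known in Treg homeostasis, at 178, 184 and 188 and at 185, 184 and 200 CPM (0.04 ± 0.05). None of these 5 with values in the 4 libraries passed, and of those named as retroelement or imprint genes Zfp445 and Zfp932 did.

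Other lists of related genes were counted in the same way. Among all genes tested 9.96% rose and 7.39% fell in the 4 libraries, beside 12.6% and 2.68% of the 261 genes. For the grouping by Trim28 level the shares of all genes tested were 4.61% higher and 3.61% lower. The KAP1 co-repressor machinery list held among others SETDB1, the HP1 proteins, HUSH and MORC proteins and DNA methyltransferases. Of its 30 tested genes 8 rose (26.7%) and 4 fell (13.3%) in the 4 libraries. By Trim28 level 4 of them were higher (13.3%) and 1 lower (3.33%). Their summed level was 6228 to 6543 CPM in the high-Trim28 and 6802 to 7165 CPM in the low-Trim28 libraries, and its part in the results above was not tested. The sum does not stand for every gene, as counts picked after they were seen show. Setdb1 had 1189 to 1333 counts with high and 2857 to 3000 with low Trim28. Trim24 had 847 to 973 and 3397 to 4280, and Morc3 had 1453 to 1684 and 3116 to 3379. Chd3, with the most counts of the list, had 21075 to 23864 and 19316 to 21424. Zbtb-numbered genes pair fingers with a BTB domain in place of KRAB. Of 36 tested, 10 rose (27.8%) and 1 fell (2.78%) in the 4 libraries, at a median of 0.07. By Trim28 level 4 of the 36 were higher (11.1%) and 0 lower. Of 18 tested Zscan and Zkscan genes, which carry a SCAN domain, 3 rose (16.7%) and none fell, at a median of 0.15. By Trim28 level 2 of the 18 were higher (11.1%) and 0 lower. KRAB patterns were not searched for in these lists, so their genes may carry a KRAB box. Of 87 Zfp-numbered genes under the limit (Zfp296 aside), 13 had enough counts to be tested, of which 2 rose (15.4%). By Trim28 level 1 of the 13 was higher (7.69%) and 0 lower.

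The authors' deposited table, in which negative values mean higher in deficient cells, has an adjusted p for 251 of the 261 genes. Of these genes in the authors' deposited table, 9 (3.59%) are under 0.05, beside 6.87% of 12072 genes, 8 higher and 1 lower in deficient cells. The edgeR fit by label in all 6 libraries called 0.0165% of genes tested, so the authors' comparison differs from it. Why they differ was not tested. The authors' deposited table gives log2 fold changes of -0.36 for Zfp445 (adjusted p = 2.72e-07), -0.53 for Zfp937 (7.4e-08), -0.36 for Zfp950 (0.000133), 0.41 for Zfp839 (0.0253) and -0.34 for Zfp758 (0.0371). Zfp445, Zfp950 and Zfp839 were also called here by Trim28 level. Of the others called so, the authors' deposited table gives -0.27 for Zfp110 (adjusted p = 0.00418), -0.35 for Zfp933 (0.0119) and -0.28 for Zfp120 (0.0209), all under 0.05. It gives -0.26 for Zfp300 (adjusted p = 0.283), -0.35 for Zfp128 (0.0968) and -0.29 for Zfp420 (0.0846), all above 0.05. No value was matched for Zfp992 and Zfp983. For Zfp300 the error of the fold change is 0.131 in the authors' values and 0.24 in edgeR by Trim28 level. These fold changes may differ in how they were computed, so their sizes are not compared. The same libraries may underlie the authors' values and those given here, so this is no separate evidence.

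Similar sequences limit the counts of some genes. Of the 261 genes 160 had a 50-base stretch of annotated transcript in common with another gene, 57 in over 5% of stretches and 5 in over 50%. Among the 101 with none, 15 were called in the 4 libraries (12 higher and 3 lower), or 14.9%, beside 17.4% of all genes tested. By Trim28 level 2 of the 101 were called, both higher (1.98%), beside 8.23% of all genes tested and 4.21% of the 261 genes. At the gene bounds 115 of the 261 overlapped another annotated gene. A library with 0 counts could hide up to 3 counts, or 0.273 to 0.301 CPM, and every mean of the 261 genes lay above that.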

How the data were processed

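RNA of 6 libraries of sorted spleen Treg was sequenced after TruSeq library preparation, per the labels' protocols. The submitters' processing notes name mm10, HTSeq 0.7.2, TopHat2 2.1.1 and DESeq2 without their roles. Neither the annotation nor strand handling of the counting is given in the sources used here. The deposited table holds raw whole-number counts per Ensembl gene. A second deposited table holds the authors' comparison: a mean normalized signal, a log2 fold change with its error, a test score, and p-values. Symbols came from a table matching 32919 rows, and positions from GENCODE M21; the 5072 unnamed rows held 0.603% of counts.

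Counts were tested in edgeR 4.0.16 (R 4.3.3) with TMM factors, filterByExpr and the robust quasi-likelihood test, Benjamini-Hochberg adjusted over all genes tested at 0.05. Standard errors came from the fold change and F. The fits were tested on simulated data. DESeq2 1.42.0, limma 3.58.1, other scalings, filters, a replicate block and leaving out each library were alternatives. Patterns for KRAB boxes and fingers were searched in translated GENCODE coding sequences, in place of the RefSeq proteins planned. The genes, lists and groups were chosen with earlier results of these data known. Named genes were all those called by Trim28 level, up to 5 per direction called in the 4 libraries only, the 3 smallest p-values by label, the 5 highest levels, the 3 nearest each side of the limit, the highest and lowest of each cluster and the 3 most variable. Those of clusters with no other result are summarised. Depth was 9954344 to 10994745 counts per library, and limits cover counting error only. No 2 libraries agreed within sampling noise. Python 3.11.15, pandas 2.3.3, numpy 2.4.6 and matplotlib 3.10.9 were used.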

Additional observations from a re-analysis of the deposited data

How the results depend on the processing

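Counts of called genes kept within 1.5 times under most alternatives. In the 4 libraries the count went from 40 to 10 under DESeq2, 15 among genes with no shared 50-base stretch, a set chosen after seeing the data that holds fewer genes, and 25 to 33 without single libraries (a group of 1 then borrows the spread of its counterpart); the replicate block gave 44. By Trim28 level the 11 calls became 18 with the replicate block, 29 with no filter beyond 1 count, 2 among genes with no shared stretch, and 5 to 54 without single libraries, lowest without the library labelled sufficient replicate 3 and highest without deficient replicate 3. By label the count of 0 stayed at 0, replicate block included, except that leaving out single libraries gave 0 to 19, highest without sufficient replicate 3. Requiring both KRAB patterns took the 23 called KRAB genes to 7, as fewer genes held both. Clusters numbered 22 at a gap of 0.5 Mb and 25 at 2 Mb. Where no cause is given, the cause was not tested. Of 1114 values of named genes under alternatives 52 lost a call, 31 gained one, 1031 did neither and 0 called values reversed. The median log2 fold change ranged from -0.01 to 0.07 over 52 values. Deviations of libraries that share a replicate number correlated at -0.358, -0.284 and -0.604 by label, at -0.0111 in the 4 libraries and at -0.0409, 0.0359 and 0.0218 by Trim28 level. With 2 libraries a group deviations mirror each other, so the 4-library value cannot decide on pairing. By label unlike numbers gave -0.344 to 0.476 and libraries with contradicted labels take part, so those values cannot either. For Trim28 level unlike numbers gave -0.0606 to 0.0363, so no pairing was seen there. Depth limits genes near the limit of 2 CPM the most.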
